A study of Mus musculus with 6 samples.

Results

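The steroid receptors Esr1, Esr2, Pgr, Nr3c1 and Nr3c2, the estrogen reporters Greb1 and Nrip1 and the receptor cochaperones Fkbp4 and Fkbp5 were examined in fetal mouse prostate mesenchymal cells treated with a high dose of estradiol (E2). A gene was included when the annotation of the array gave its symbol as the only symbol of a probe set, a group of short probes that reads the transcripts it matches as 1 fluorescence signal. Of the 9 genes, 8 had a probe set, with 13 probe sets in all, among 22690 probe sets on the array and 12394 gene symbols. No probe set was assigned to Nr3c2 by this annotation, so it was not measured. The cells were mesenchymal cells of the urogenital sinus, the tissue that forms the prostate, taken from male CD-1 fetuses at gestation day 17, separated from the epithelial cells and used at first passage. Both groups were held for 3 days in estrogen-free medium that contained 690 pM dihydrotestosterone (DHT), an androgen that is not converted to estrogen, and were then treated for 4 days, still with 690 pM DHT, with 100 nM E2 or with the ethanol vehicle as control. Each group held 3 samples, hybridized to 1 Affymetrix mouse expression array each, and since nothing states that they came from separate cell preparations, the p-values speak only to how these 3 samples a group varied, possibly for technical reasons.

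Steroid receptors are transcription factors that are switched on by a hormone. Esr1 and Esr2 encode the estrogen receptors alpha and beta, Pgr the progesterone receptor, Nr3c1 the glucocorticoid receptor and Nr3c2 the mineralocorticoid receptor. Bound estrogen receptor binds DNA at estrogen response elements, made of a core motif and its inverted copy. Pgr, Greb1 and Nrip1 are among the genes best known to be induced by estrogen in breast and reproductive tissue. Greb1 encodes a cofactor of the estrogen receptor and Nrip1 a corepressor of nuclear receptors. Fkbp4 and Fkbp5 encode immunophilins that sit with Hsp90 on receptors that have not yet been activated, and Fkbp5 is itself a classical target of glucocorticoid, progesterone and androgen signaling.

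Among the genes examined, the promoters of the 3 with the highest E2 signal relative to control are shown here. The letters of the estrogen core motif, GGTCA or, on the other strand, TGACC, are in capitals. Each sequence runs 5′ to 3′ along the gene from 250 bases before to 50 bases after a transcription start of RefSeq (assembly GRCm38.p6). Esr1 (chr10:4611739-4612038, plus strand), Pgr (chr9:8899583-8899882, plus strand) and the upstream and downstream starts of Greb1 (chr12:16800837-16801136 and chr12:16757190-16757489, both minus strand) read as follows.
Esr1: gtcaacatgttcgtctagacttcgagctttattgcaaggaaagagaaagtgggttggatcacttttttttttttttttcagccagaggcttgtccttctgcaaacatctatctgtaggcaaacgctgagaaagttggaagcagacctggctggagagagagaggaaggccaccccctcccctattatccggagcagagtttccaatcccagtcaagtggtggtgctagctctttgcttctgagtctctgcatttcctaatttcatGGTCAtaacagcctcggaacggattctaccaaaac
Pgr: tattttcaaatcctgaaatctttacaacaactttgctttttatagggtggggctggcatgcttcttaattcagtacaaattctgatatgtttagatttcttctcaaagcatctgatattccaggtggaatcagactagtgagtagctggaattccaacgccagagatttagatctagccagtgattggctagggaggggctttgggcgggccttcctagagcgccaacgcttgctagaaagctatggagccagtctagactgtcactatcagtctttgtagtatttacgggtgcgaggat
Greb1, upstream start: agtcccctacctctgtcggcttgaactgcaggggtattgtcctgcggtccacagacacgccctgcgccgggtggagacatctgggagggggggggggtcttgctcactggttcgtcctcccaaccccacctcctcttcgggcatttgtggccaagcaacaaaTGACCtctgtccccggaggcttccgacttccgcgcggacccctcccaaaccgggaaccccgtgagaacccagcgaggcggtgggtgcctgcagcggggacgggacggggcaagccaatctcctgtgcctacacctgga
Greb1, downstream start: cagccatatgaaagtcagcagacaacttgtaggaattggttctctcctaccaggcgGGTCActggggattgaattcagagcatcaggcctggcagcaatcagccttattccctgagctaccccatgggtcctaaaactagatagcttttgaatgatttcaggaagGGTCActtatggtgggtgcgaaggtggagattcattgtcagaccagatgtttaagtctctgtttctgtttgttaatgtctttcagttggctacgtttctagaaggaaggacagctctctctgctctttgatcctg

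The Esr1 promoter held 1 core motif, 15 bases after the start, and a second Esr1 promoter (chr10:4709908-4710207, plus strand) held none. The Pgr promoter held none. The upstream Greb1 promoter held 1, 88 bases before the start, and the downstream one held 2, 194 and 85 bases before it. Over all members, 8 genes had 11 promoters in the table, Nr3c1 being without an entry, and 6 of the 11 held a core motif, those of Esr1, Esr2, Nr3c2, Greb1 (both) and Nrip1 (1 of its pair). A core motif was in 40.5% of all 32851 promoters of this length. The full palindrome, GGTCA and TGACC with any 3 bases between them, was in 0.07% of all promoters and in 0 of the 11. The core motif of the glucocorticoid and progesterone receptors, AGAACA or TGTTCT, was in 19% of all promoters and in 0 of the 11, and its palindrome, again with 3 bases between them, was in 0.00913% of all and in 0 of the 11. The searches covered both strands, and each palindrome contains its core motifs. A match is a match of letters and is not a bound site, and its absence says nothing about sequences outside these windows.

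The array signal is linear and in fluorescence units. Array medians ran from 13.7 to 21.8 units, a ratio of 1.59, so each array was scaled to its median, and all values below are on that scale unless stated. A probe set was tested when the deposited values of either group averaged 10 units or more, the floor used in the study's methods, which kept 14223 probe sets. Of the 13 member probe sets 12 were tested, and the 1 left out was that of Esr2. The comparison of E2 with control was fitted with limma, the p-values were adjusted after Benjamini and Hochberg over all probe sets tested, and differences are log2 values, E2 minus control. Means are given ± SD over the 3 arrays of a group, and every adjusted p is that of limma. Signals of different probe sets depend on their probes, so no level of one is set against that of another. As deposited, the 18S ribosomal RNA control probe set was bright on 1 array of each group, control replicate 3 (281 units) and E2 replicate 2 (288 units), against 22.8 to 44.7 units on the other 4.

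All 10 mesenchymal markers, among them Col1a2 and Col1a1, were above the floor, with a summed signal of 14883 to 16802 units in control and 14347 to 15097 units in E2. Of 12 epithelial markers on the array 4 were tested and 8 were below the floor in both groups, among them the defining genes Cdh1, Epcam, Krt5 and Trp63. Their summed signal was 60.5 to 95.7 units in control and 145 to 159 units in E2, and 1 of them, the keratin Krt18, was called higher. All 12 macrophage and leukocyte markers were above the floor, with sums of 343 to 553 units in control and 312 to 346 units in E2. None was called, but all 12 had a lower mean with E2 than in control. The largest log2 difference among them was that of C1qb, at -1.24 (48.4 units in control and 20.1 units in E2, adjusted p = 0.0630). Endothelial markers summed to 79.1 to 109 and 79.8 to 97.0 units, with 3 of the 8 above the floor (Flt1, Kdr and Emcn) and 5 below it (Pecam1, Cdh5, Tek, Tie1 and Cldn5), and smooth muscle markers to 6952 to 8653 and 7280 to 8278 units. The epithelial sums were higher in every E2 array than in every control array, while the macrophage sums overlapped between the groups, and the part of either in the results below was not tested. In bulk RNA, fewer cells of a type and less RNA per cell cannot be told apart.

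Esr1, the main estrogen receptor of reproductive tract mesenchyme, read 6.91, 6.30 and 1.27 units on the control arrays, in the order of their replicate numbers as throughout, and 18.8, 15.6 and 14.7 units on the E2 arrays. Every E2 array lay above 10 units and every control array below it, and the lowest value, in control replicate 3, was on an array of high 18S signal. The means were 4.83 ± 3.09 and 16.3 ± 2.16 units, a log2 difference of 2.09 (SE 0.70, 95% confidence interval 0.59 to 3.59) with an adjusted p of 0.367, so Esr1 was not called. It did pass the looser thresholds of the study's methods, 1.5-fold at an unadjusted p of 0.05 or less, but not without moderation of the variance, where the unadjusted p was 0.0590. Without both arrays of high 18S signal the log2 difference was 1.33, with an adjusted p of 0.412. The ratio of the E2 mean to 10 units was 1.63, and with values below 10 units raised to 10 the log2 difference was 0.70.

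Esr2, the estrogen receptor beta, read 2.12, 5.61 and 0.965 units in control and 0.613, 1.82 and 0.831 units in E2. All 6 arrays were below 10 units and the groups overlapped. No difference was tested, and signal of this size was not told apart from background. In a fit without the filter the log2 difference was -1.21 with an adjusted p of 0.900.

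Pgr, the progesterone receptor and an established target of Esr1, read 5.83, 4.30 and 6.56 units in control and 24.7, 19.6 and 34.3 units in E2. The highest control array was below the lowest E2 array by more than the spread within control. Pgr rose from 5.57 ± 1.15 to 26.2 ± 7.45 units, a log2 difference of 2.22 (SE 0.41, 95% confidence interval 1.33 to 3.11) with an adjusted p of 0.0200. Because the control mean was below 10 units, the fitted 4.66-fold rests on signal near background, and the E2 mean is 2.62 times 10 units. The call was lost without E2 replicate 1 (adjusted p = 0.120), without E2 replicate 3 (0.220), in limma without a variance trend (0.0579) and without moderation of the variance (0.307).

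**Figure D1:**
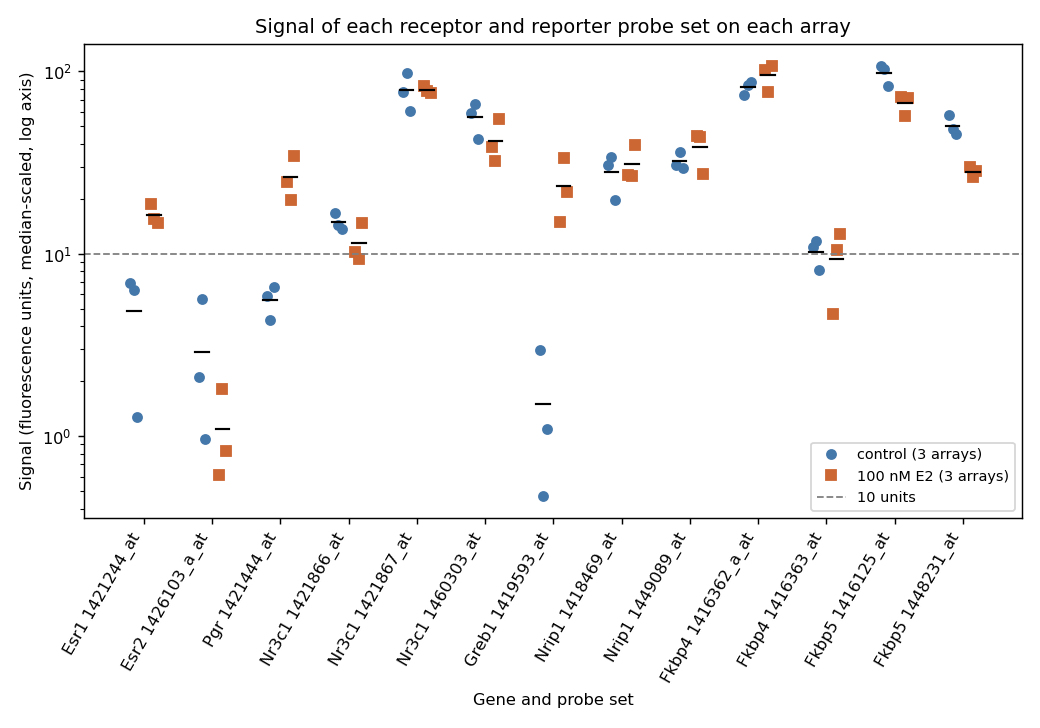
Median-scaled signal of the 13 probe sets (fluorescence units, log axis), 1 point per array, with control as circles, 100 nM E2 as squares, a bar at each group's mean and a dashed line at 10 units. The control arrays of Esr1, Pgr and Greb1 are all below 10 units and their E2 arrays all above it, while the probe sets of Nr3c1 and Nrip1 overlap between the groups.

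Nr3c1, the glucocorticoid receptor, was read by 3 probe sets, none of which was called, and in all of them the groups overlapped. Probe set 1421867_at read 77.2, 98.0 and 60.9 units in control and 82.7, 77.9 and 75.9 units in E2. Its log2 difference was 0.03 (SE 0.18, 95% confidence interval -0.36 to 0.42, adjusted p = 0.983), an interval that reaches from a 0.779-fold to a 1.34-fold level. Control spread more widely there than E2, with SDs of 18.6 and 3.50 units. Probe set 1460303_at read 58.9, 66.2 and 42.7 units in control and 38.4, 32.0 and 54.6 units in E2, with a log2 difference of -0.44 (SE 0.23, 95% confidence interval -0.93 to 0.06, adjusted p = 0.683). Probe set 1421866_at read 16.8, 14.4 and 13.7 units in control and 10.2, 9.36 and 14.8 units in E2, with a log2 difference of -0.41 (SE 0.37, 95% confidence interval -1.21 to 0.39, adjusted p = 0.848). E2 replicate 2 gave the only value of this gene below 10 units. The difference by 1421867_at was above that by 1460303_at by 0.46 (exact permutation p = 0.3), the widest gap between probe sets of this gene, where the smallest p that 3 arrays against 3 allow is 0.1.

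In all, 3 of the 6 receptor probe sets, those of Nr3c1, had every control array at 10 units or above, and 4 had every E2 array there, those of Esr1, Pgr and 2 of Nr3c1. These counts were the same with the values as deposited.

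Greb1, the cofactor of the estrogen receptor, had the largest fitted log2 difference of the members, but not with values raised to at least 10 units, where it was 1.15 against 1.35 for Pgr. Greb1 read 2.97, 0.468 and 1.09 units in control and 14.8, 33.6 and 21.7 units in E2, so that all control arrays were below 10 units and all E2 arrays above. The means were 1.51 ± 1.30 and 23.4 ± 9.51 units, and the log2 difference was 4.27 (SE 0.98, 95% confidence interval 2.18 to 6.36, adjusted p = 0.0695), so it was not called. The fitted value depends on how far below 10 units the control arrays lay: the ratio of the E2 mean to 10 units was 2.34, against 2.62 for Pgr, and with log2(value + 16) the log2 difference was 1.15. Greb1 was called with log2(value + 16) (adjusted p = 0.00587), on the unscaled deposited values (0.0149), with array weights (0.0354) and without control replicates 1 or 2 (0.0365 and 0.0458). With any of the E2 arrays left out it was at 0.324 to 0.406.

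Esr1, Pgr and Greb1 passed the filter through their E2 means alone, so they had to be higher with E2 to be tested and their share among the members tested supports nothing. Of the 757 probe sets that passed in this way, 26.6% had all E2 arrays above all control arrays and 1.19% were called higher. Without any filter, over 22626 probe sets, Pgr and Greb1 were called (adjusted p = 0.0420 and 0.0274) and Esr1 was not (0.421), where 0.301% of all probe sets were called higher. Esr1 and Pgr are also among the genes the study picked on these same arrays, so their selection there is no independent evidence. Outside these arrays, the paper reports higher Esr1 by quantitative PCR in independent samples given the same dose of E2. It also lists Esr1 and Pgr as higher at lower doses of E2, where its effects were lost on adjustment for multiple testing. Those data were not examined here. The order of the E2 arrays differed among the 3 genes, being highest in replicate 1 for Esr1, replicate 3 for Pgr and replicate 2 for Greb1.

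Nrip1, which recruits repressor complexes to ligand-bound receptors, was not called by either of its probe sets. Probe set 1418469_at read 30.6, 33.9 and 19.6 units in control and 26.9, 26.8 and 39.2 units in E2, and 1449089_at read 30.8, 36.2 and 29.6 units in control and 43.9, 43.8 and 27.3 units in E2. In both the groups overlapped, and E2 replicate 3 was the highest E2 array in the first and the lowest of all arrays in the second. The log2 differences were 0.16 (SE 0.26, 95% confidence interval -0.40 to 0.72) and 0.22 (SE 0.23, 95% confidence interval -0.27 to 0.72), with adjusted p of 0.931 and 0.869. The upper ends of these intervals are 1.65-fold and 1.64-fold.

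Fkbp4, the cochaperone that favors receptor activation and nuclear transport, read 74.2, 84.3 and 87.0 units in control and 102, 76.5 and 107 units in E2 by probe set 1416362_a_at. E2 replicate 2 lay within the control range and the other E2 arrays above it. The log2 difference was 0.21 (SE 0.17, 95% confidence interval -0.15 to 0.57, adjusted p = 0.818). Probe set 1416363_at was near the floor, at 10.9, 11.7 and 8.10 units in control and 4.68, 10.4 and 12.9 units after E2 (log2 difference -0.24 with an SE of 0.54, adjusted p = 0.951). The difference between the 2 probe sets, 0.45, had an exact permutation p of 0.5.

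Fkbp5, the cochaperone that lowers the hormone affinity of the receptor complex, read 57.7, 48.0 and 45.5 units in control and 29.7, 26.4 and 28.4 units in E2 by probe set 1448231_at. It read 108, 103 and 83.0 units in control and 71.9, 57.1 and 70.9 units in E2 by 1416125_at. In both probe sets every E2 array lay below every control array. The log2 differences were -0.83 (SE 0.19, 95% confidence interval -1.25 to -0.42, adjusted p = 0.0752) and -0.55 (SE 0.17, 95% confidence interval -0.91 to -0.19, adjusted p = 0.268), so neither was called. The first passed the looser thresholds and the second, lower by 1.47-fold, did not. With the values as deposited both had an adjusted p of 1, with log2 differences of -0.77 and -0.49, and with array weights 1448231_at was called (0.0421). The difference between the 2 probe sets, 0.28, had an exact permutation p of 0.1, the smallest possible, and of 0.6 after adjustment over the 6 pairs of probe sets compared.

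At an adjusted p under 0.05, 1 of the 12 member probe sets tested was called higher (Pgr), against 0.492% of all probe sets tested, and 0 were called lower, against 0.253%. The 0 stands beside 2 lower at an unadjusted p under 0.05, both of Fkbp5. By the looser thresholds, 3 were higher (Esr1, Pgr and Greb1), against 2.06% of all, and 1 was lower (Fkbp5, 1448231_at), against 1.88%. All E2 arrays lay above all control arrays in 3, against 5.72% of all, and below them in 2, against 8.49%, while 7 overlapped. As the filter fixed the direction of the 3 that were higher, these counts describe the members and are no test of them.

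**Figure D2:**
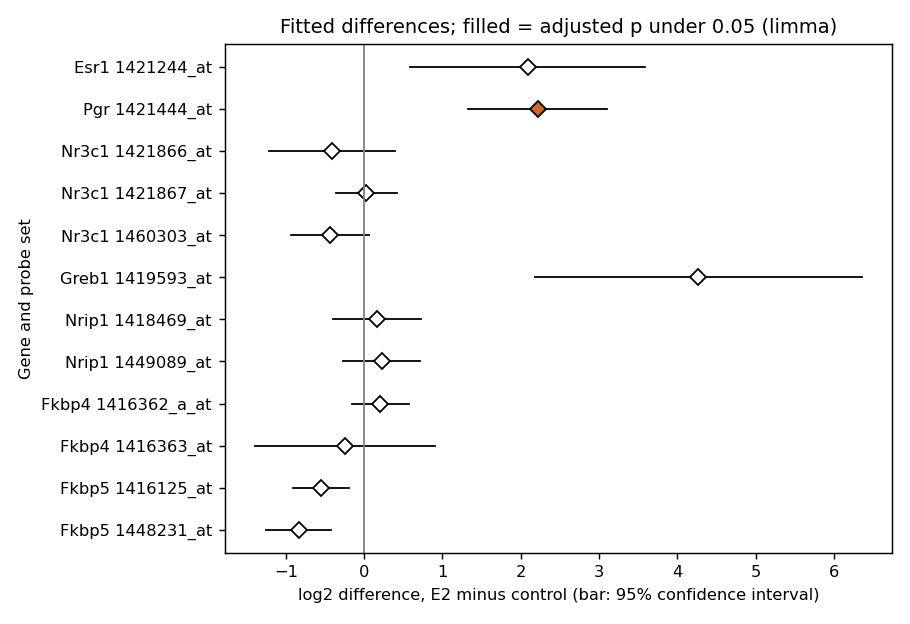
Log2 difference of the 12 member probe sets tested, E2 minus control, with the 95% confidence interval, filled where the adjusted p was under 0.05. Pgr at 2.22 is the only filled point, and the intervals of Esr1, Greb1 and both Fkbp5 probe sets also lie on 1 side of 0.

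**Figure D3:**
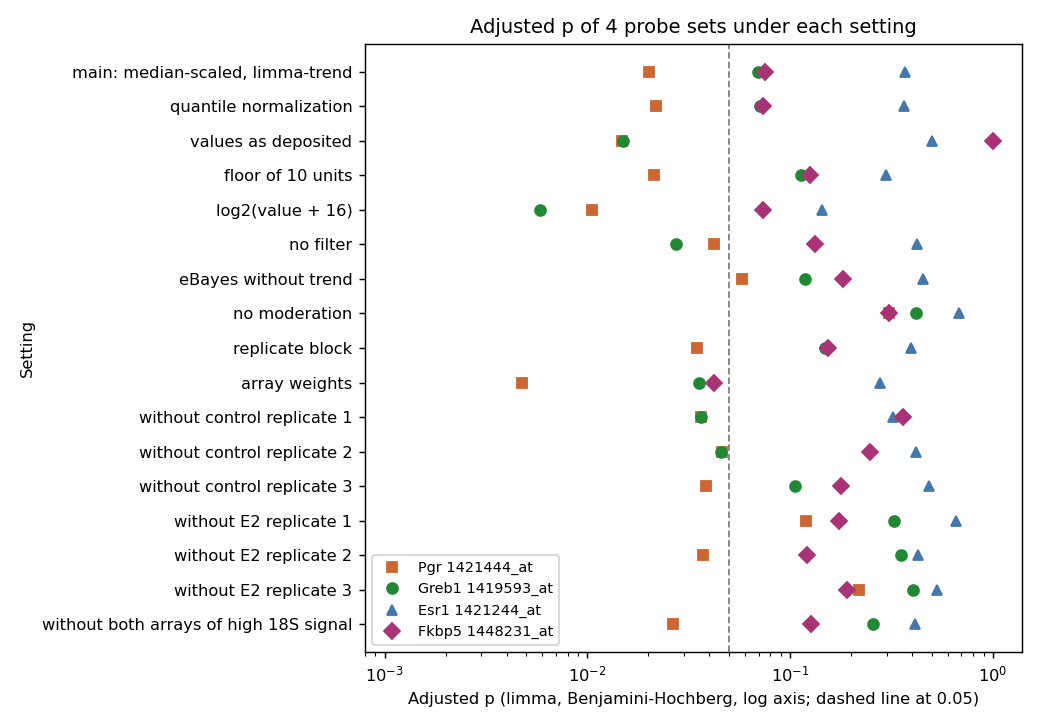
Adjusted p (log axis) of Pgr, Greb1, Esr1 and Fkbp5 (1448231_at) under the main setting and 16 alternatives, with a dashed line at 0.05. Pgr lies left of the line under 12 of the 16 alternatives, Greb1 under 6, Fkbp5 under 1 and Esr1 under 0.

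For the genes that these receptors act on or act with, lists were drawn up from textbook knowledge, with earlier results of these data known. For each gene the brightest of its probe sets was used. Over all 8257 genes tested, 0.569% were called higher and 0.339% lower, and the median log2 difference was -0.03. The share of all genes at an unadjusted p under 0.05 was not counted, so list counts at that threshold have no background here. Of 41 genes of the estrogen response, 37 were on the array and 29 were tested: 3 were called higher, 0 lower and 26 did not pass, with a median of 0.22. At an unadjusted p under 0.05, 9 were higher and 3 lower. Those called were Pgr, Car12 and Inhbb, of which Pgr and Car12 had control means below 10 units. Among the 9 higher, Pgr, Greb1, Car12 and Krt19 (control mean 8.66 units) passed the filter through E2 alone, which fixed their direction. The counts and the median therefore describe the list and are no test of it. Car12, the carbonic anhydrase XII that is a known estrogen target in breast cells, rose from 7.01 ± 1.19 to 47.9 ± 11.1 units (log2 difference 2.76 with an SE of 0.30, adjusted p = 0.000290). Inhbb, which forms inhibin B or activin B, had a log2 difference of 1.75. The closest of those not called were Greb1 and the chemokine Cxcl12, at a control mean of 1193 ± 114 units and an E2 mean of 892 ± 46.7 units (log2 difference -0.42 with an SE of 0.11, adjusted p = 0.132), of which the second lay lower with E2. The list also holds Krt19, an epithelial keratin, at 1.38 and not called. The study chose some of these genes on the same arrays.

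Of 17 tested genes of the Hsp90 complex that holds steroid receptors ready for hormone, 1 was called higher, 0 lower and 16 did not pass, with a median of -0.04, that of all genes being -0.03. At an unadjusted p under 0.05, 1 was higher and 1, Fkbp5, lower, and the next, Fkbp4, was at 0.21. The gene called was Hspa4, an exchange factor of Hsp70, which rose from 276 ± 13.0 to 449 ± 55.2 units (log2 difference 0.69 with an SE of 0.12, adjusted p = 0.0157). Hspa4 was not called on the unscaled deposited values (adjusted p = 1) or with single arrays left out other than E2 replicate 2 (0.0599 to 0.106), and its 2 dimmer probe sets had log2 differences of 1.09 and 0.39 and were not called (adjusted p = 0.277 and 0.781).

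Of 24 tested genes that glucocorticoids regulate, 3 were called lower, 0 higher and 21 did not pass, with a median of -0.06. Lcn2, the iron carrier lipocalin 2, fell from 302 ± 62.7 to 49.3 ± 19.1 units (log2 difference -2.68 with an SE of 0.26, adjusted p = 9.07e-05). The CDK inhibitor Cdkn1c fell by 1.24 on the log2 scale, and Mt1, a metal-binding metallothionein, fell from 1314 ± 165 to 855 ± 97.8 units (log2 difference -0.62 with an SE of 0.12, adjusted p = 0.0307). Mt1 is close in sequence to Mt2, which was at a control mean of 814 ± 224 units and an E2 mean of 490 ± 39.3 units (log2 difference -0.70 with an SE of 0.16, adjusted p = 0.0630). Against these, Errfi1, a feedback inhibitor of the EGF receptor, had a log2 difference of 0.59 (SE 0.13, adjusted p = 0.0630). At an unadjusted p under 0.05, 6 of the 24 were lower and 2 higher, with no share of all genes at that threshold to set beside them. The study also lists Lcn2 and Cdkn1c as lower on these same arrays. The counts therefore describe the list and are no test of it. Cdkn1c and Mt1 were not called on the unscaled deposited values (adjusted p = 0.245 and 1), nor was Mt1 with any single array left out but control replicate 2, at 0.0596 to 0.143, with no filter (0.0664) or without both arrays of high 18S signal (0.0711).

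Of 9 tested genes that progesterone receptor regulates in the uterus, 1 was called lower and 8 did not pass, with a median of -0.26, and 9 others on the array were below the floor in both groups. The one called was Fst, the activin-binding protein follistatin, which fell from 81.5 ± 5.34 to 41.5 ± 4.84 units (log2 difference -0.98 with an SE of 0.17, adjusted p = 0.0124), and no gene of the list was higher at an unadjusted p under 0.05. The study also lists Fst as lower on these same arrays, so this call is no independent evidence. Fst was not called on the unscaled deposited values (adjusted p = 1), without control replicates 2 or 3 (0.0744 and 0.0957), without E2 replicate 1 (0.0591) or without both arrays of high 18S signal (0.0569). The next were Cited2, a transcriptional coregulator, at -0.42, and Hsd11b2, which inactivates glucocorticoid, at -1.25 near the floor (11.8 and 5.96 units, adjusted p = 0.691). Of 8 tested genes of the mineralocorticoid response 0 were called by limma, while 3 had an unadjusted p under 0.05, of which 1 was higher and 2 lower, those lower being Fkbp5 and the sodium pump subunit Atp1b1 (-0.36). Of 6 tested genes for related and membrane steroid receptors 0 were called by limma, while 1 had an unadjusted p under 0.05, the membrane progestin receptor Paqr7, at a control mean of 73.2 ± 3.66 units and an E2 mean of 55.2 ± 3.53 units (log2 difference -0.41, adjusted p = 0.510). The orphan receptor Nr2f1 was at -0.36 (adjusted p = 0.712). Fkbp5 belongs to 3 of these lists. Over the 6 lists, 84 genes were tested, 4 were called higher and 4 lower, and in limma without a variance trend Car12 (adjusted p = 0.0149) was the only one of them called.

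**Figure D4:**
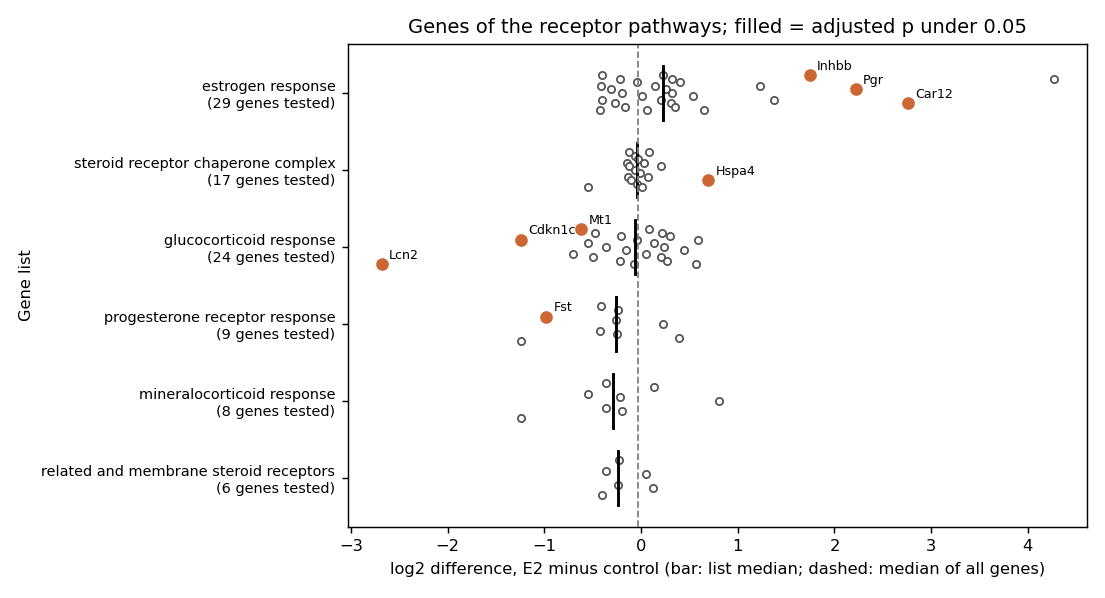
Log2 difference, E2 minus control, of each gene tested in 6 lists, with a bar at the list's median, a dashed line at the median of all genes (-0.03) and filled, named points where the adjusted p was under 0.05. The filled points of the estrogen response lie at 1.75 to 2.76 and those of the glucocorticoid response at -0.62 to -2.68, and most open points lie within 1 unit of 0.

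The genes with the most similar pattern were found by the root mean square distance of log2 values, each probe set being centered on its own mean over the 6 arrays. For Pgr they were Dkk2, a Wnt inhibitor, at 0.21, the transporter Slco5a1 at 0.26 and the lipase Lipg at 0.29. Dkk2 read 16.3, 13.0 and 13.5 units in control and 81.1, 52.7 and 94.4 units in E2, with replicate 2 the lowest and replicate 3 the highest of the E2 arrays, as for Pgr. Dkk2 and Lipg were called (adjusted p = 0.000156 and 0.00311) and Slco5a1 was not (0.118). For Greb1 they were the angiopoietin Angpt2 at 0.44, the R-spondin receptor Lgr6 at 0.58 and Mettl7a2 at 0.77, all lowest in control replicate 2 or 3, with the highest control array at 10.7 units, that of Angpt2. Angpt2 and Mettl7a2 were called (adjusted p = 0.000742 and 0.0140) and Lgr6 was not (0.0586). For Esr1 they were Mbp at 0.28, Dhodh at 0.31 and Zfp280d at 0.35, which were all lowest in control replicate 3, and none of the 3 was called (adjusted p = 0.526, 0.682 and 0.587). The distance of Esr1 from Pgr was 0.97, that of Pgr from Greb1 1.32 and that of Esr1 from Greb1 1.57. All of these genes but Dkk2 passed the filter through E2 alone, and the 6 points share the 2 groups.

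**Figure D5:**
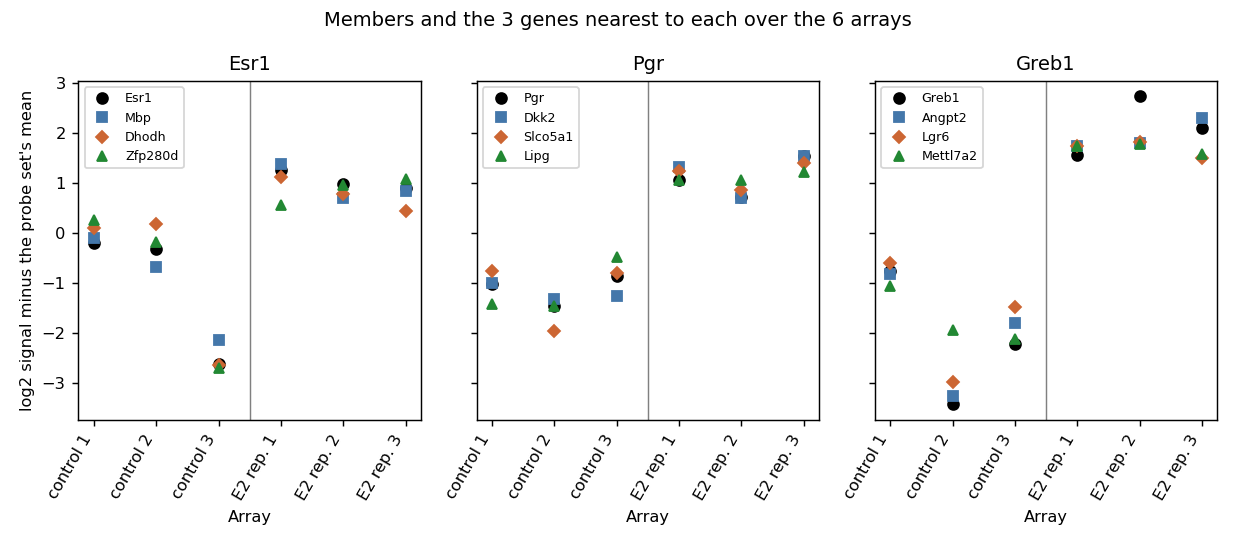
Log2 signal on each array, minus the probe set's mean over the 6 arrays, for Esr1, Pgr and Greb1 (black circles) and the 3 genes nearest to each, with a line between control and E2 arrays. The Esr1 panel shows all 4 genes lowest in control replicate 3, and the Pgr panel shows Dkk2 and Pgr within 0.21 of each other on root mean square.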

How the data were processed

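RNA from 3 control and 3 E2-treated samples was measured on Affymetrix mouse arrays. The authors scanned the arrays and turned the images into the deposited intensity values, which are linear, using the array maker's GeneChip Operating Software and its Gene Expression Console. For these the sources used here give no version, algorithm or scaling. Symbols came from the platform annotation, updated by gene identifier. A probe set without exactly 1 symbol was tested but is not named. After 64 control probe sets were left out, each array was divided by its median and multiplied by the geometric mean of the medians. The log2 values were fitted in R 4.3.3 with limma 3.58.1 (lmFit, eBayes with a variance trend), two-sided, over the 14223 probe sets whose deposited values averaged 10 units or more in either group. The threshold was an adjusted p of 0.05. Probe sets of 1 gene were compared by exact permutation of within-array log2 ratios. As alternatives, the deposited values were left unscaled or quantile-normalized, and the fit was run with a floor of 10 units, a pseudocount of 16, no filter, a filter at 100 units, limma without trend and without moderation, for the lists the mean over a gene's probe sets, array weights, the replicate number as a block, single arrays left out and both arrays of high 18S signal left out. 

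The members and the gene lists were chosen with earlier results of these data known. From each list the text names the genes called and the 2 with the smallest p among those not called, and for Esr1, Pgr and Greb1 the 3 genes of nearest pattern. The fit was tested on simulated data before use. There is no read depth, and the precision is limited by how many arrays there are. The standard error of a log2 difference had a median of 0.21, of 0.44 for the 3590 probe sets under 20 units and 0.14 at 100 units and above. The promoter coordinates are those of the RefSeq table.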

Additional observations from a re-analysis of the deposited data

How the results depend on the processing

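The count of member probe sets called higher at an adjusted p under 0.05, 1 as reported, was 2 with the values as deposited, with log2(value + 16), with no filter and with array weights, where Greb1 joined Pgr, and 0 with a filter at 100 units, which left out Pgr, and with limma without trend or without moderation. It was 0 to 2 with single arrays left out. The count called lower, 0, was 1 with array weights (Fkbp5). By a 1.5-fold change and p, the 3 higher became 0 with the filter at 100 units and 2 without moderation, where Esr1 did not pass, and the 1 lower became 0 with log2(value + 16) or that filter and 1 to 3 with single arrays left out. In the pathway lists, 4 genes higher became 6 with log2(value + 16), with no filter or with array weights. They became 2 with the filter at 100 units, 1 without trend, 0 without moderation and 2 to 5 with single arrays left out. The 4 lower became 5 with log2(value + 16) or array weights and 3 with no filter. They became 1 as deposited, 0 without trend or moderation and 2 to 3 with single arrays left out. Over all probe sets, the 70 higher and 36 lower were 39 and 7 as deposited, 15 and 1 without trend, 3 and 0 without moderation and 112 and 70 with array weights. They were 37 higher and 19 lower without E2 replicate 1, 42 higher without E2 replicate 3, and 17, 13 and 11 lower without control replicates 1, 2 and 3. The cause was not tested. Esr1, Pgr, Greb1 and Fkbp5 kept their sign under all the alternatives that could be fitted. The sign turned for Nr3c1 1421867_at (-0.031 with array weights, -0.14 to 0.20 with single arrays left out, negative without control replicate 3 or E2 replicate 1, and -0.13 with the bright-18S arrays left out), Nrip1 1418469_at (-0.080 to 0.32 with single arrays left out, negative without control replicate 3 or E2 replicate 3) and Fkbp4 1416363_at (0.020 with the floor of 10 units, and -0.54 to 0.19 with single arrays left out, positive without E2 replicate 1), none of which was called. With the filter at 100 units, the only member probe set tested was Fkbp4 1416362_a_at.

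Samples of the 2 groups share replicate numbers, but the deviations of same-numbered arrays from their group means correlated at 0.01, -0.05 and -0.06, so the numbers were not taken as pairs. With the replicate number as a block, 1 member probe set was higher and 0 lower, as reported, Greb1 had an adjusted p of 0.148 from limma, and 61 probe sets were higher and 27 lower over the whole array.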
